A study of Homo sapiens with 24 samples.

Results

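The comparison pooled 3 cell lines against their control: 6 arrays from SW480 lines labelled BOP1, CKS2 and NFIL3 were set against 2 arrays from the control line, all in the solvent DMSO. Samples were chosen by their titles, and the 8 arrays are all of those labelled DMSO among the 24 of the series. SW480 is an established human colon cancer line, and the cells of all 4 lines had been stably infected with a pBABE-puro retrovirus, labelled as control, BOP1, CKS2 or NFIL3. They grew in DMEM with 10% FCS and received DMSO for 24 h. Illumina HumanHT-12 v4 bead arrays read the RNA, and on them the signal of a probe stands for the level of its transcript. Each line had 2 arrays, which the labels call biological replicates, and the labels name 1 stably infected line for each virus, without saying how its cultures were kept apart. Any difference between the 3 lines and control therefore carries whatever set apart the only control line, and the inserted gene, the infection and the later history of the cultures cannot be told apart. A p-value here weighs a difference against the scatter between arrays of the same group. That scatter was estimated over all 24 arrays of the series, including those not in DMSO, and part of it may be technical.

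BOP1 is a nucleolar protein needed to make the large ribosomal subunit, CKS2 is a small partner of cyclin-dependent kinases, and NFIL3 is a transcriptional repressor of the bZIP family. A retroviral vector such as pBABE-puro integrates into the genome and expresses its insert from the viral promoter, and puromycin keeps the cells that carry it. The genes given as markers of this comparison come from separate systems. TAGLN (transgelin) and MYL9 (a myosin regulatory light chain) belong to the actin contractile apparatus, AKR1C3 is an aldo-keto reductase that acts on steroids and prostaglandins, ATOH8 is a basic helix-loop-helix transcription factor, and RCAN2 binds and inhibits the phosphatase calcineurin.

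The 6 line arrays were close to one another and apart from control. Over 12141 genes, the median absolute log2 difference between arrays was 0.11 to 0.12 for the 4 pairs of the same line and 0.11 to 0.14 for the 12 pairs of different lines. It was 0.20 to 0.22 for the 12 pairs of a line array and a control array. On the first principal component of the 8 arrays, with 47.6% of the variance, the control arrays lay at -23.8 and -26.0 and the line arrays between 6.3 and 9.9. Probes detected numbered 18067 and 18085 on the control arrays and 18435 to 19666 (median 19201) on the line arrays, a difference for which the exact two-sided permutation p was 0.0714, the smallest that 6 against 2 arrays allow. The part of this difference in genes that were below background in control was not tested. The colon epithelium list was present, with 10 of 16 markers detected on all 8 arrays, including EPCAM, KRT8, KRT18, KRT20, CDX2 and CDH1. VIL1, CDX1, CEACAM5, CEACAM6, LGALS4 and GPA33 were detected on none. Of the markers of other cells, 8 of 10 for fibroblasts, 8 of 12 for smooth muscle, 6 of 11 for leukocytes and 8 of 9 for endothelium were detected on none of the 8 arrays.

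**Figure D1:**
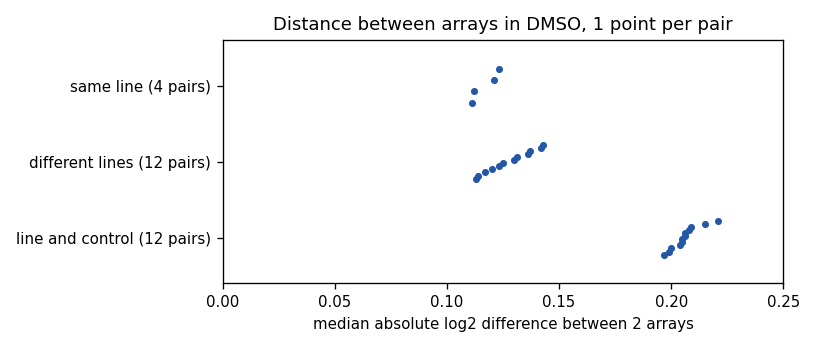
Each point is a pair of DMSO arrays, placed by the median absolute log2 difference over 12141 genes (horizontal axis) and grouped by whether the arrays share a line. Pairs of different lines (0.11 to 0.14) lie beside pairs of the same line (0.11 to 0.12), and the 12 pairs of a line with control lie apart at 0.20 to 0.22.

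The introduced genes were not higher in the lines that carry their names. BOP1 was at 13.52 and 13.38 on the log2 scale in the control line, at 12.89 and 12.89 in cells labelled BOP1, at 12.81 and 12.87 in those labelled CKS2, and at 13.02 and 12.84 in those labelled NFIL3. All 6 line arrays, those of the BOP1 line included, lay below both control arrays, and the pooled difference was -0.56 (SE 0.072, limma adjusted p = 7.36e-05). CKS2 differed by -0.13 (SE 0.088, adjusted p = 0.313) at its brightest probe, and NFIL3 by -0.05 (SE 0.079, adjusted p = 0.705), and neither passed. With median scaling CKS2 stood at -0.32 (adjusted p = 0.0301), and as a mean of its probes at -0.24 (adjusted p = 0.0354). A dimmer CKS2 probe stood at -0.35 (adjusted p = 0.0179 in the fit of all probes). Whether these probes lie in the part of each transcript that the vectors carry was not tested, so the values do not check the labels, and the lines are called by their labels throughout.

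Of the 12141 genes tested, 2811 (23.2%) passed an adjusted p under 0.05 in the pooled comparison, which sets the mean of the 3 lines against control. There were 1620 that rose (13.3%) and 1191 that fell (9.81%), so 57.6% of the calls were rises. With arrays scaled to a common median in place of quantile normalization, 3399 passed and 39.3% of them were rises, so the balance between rises and falls depended on the scaling. Most changes were small: the median size was 0.44 on the log2 scale for rises and 0.40 for falls, and 62 rises (0.511%) and 21 falls (0.173%) exceeded 2-fold. The control arrays carried much of the precision. Leaving out control array 1 gave 1317 calls, and leaving out control array 2 gave 1074. Among the rises, 193 genes were below background on both control arrays, 9 of them on all 6 line arrays too. Below background means a detection p of 0.01 or more. The fitted difference of such a gene depends on values at background, and "at least" gives instead the fold against the lowest level detectable on those arrays, where any line array was detected. In 4992 further probes with no single listed gene, 408 rose and 397 fell.

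**Figure D2:**
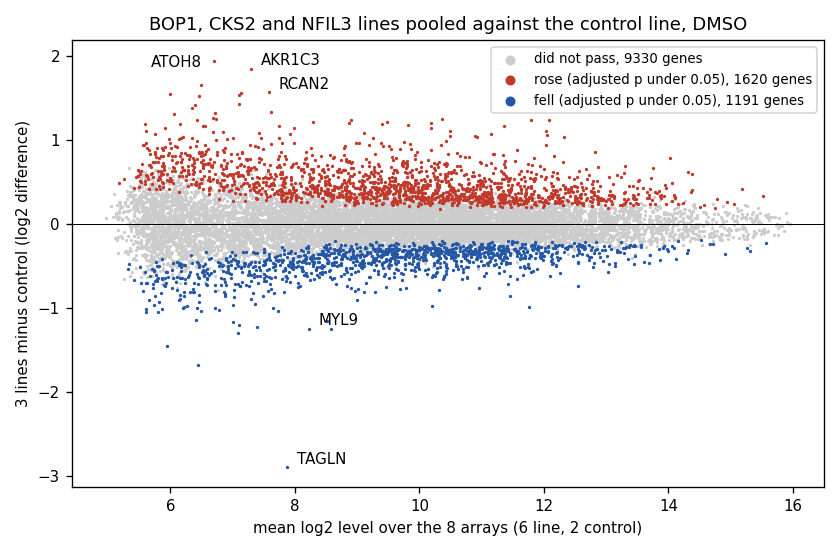
Each point is a gene, with its mean log2 level over the 8 DMSO arrays on the horizontal axis and the mean of the 3 lines minus control (log2) on the vertical axis. Red points rose (1620 genes), blue points fell (1191) and grey points did not pass, and TAGLN at -2.90 lies apart from the other falls.

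The direction of the pooled difference was shared by the single lines. All 1620 rises had a positive difference in each of the 3 lines, and 1190 of the 1191 falls had a negative difference in each. The 3 differences share the 2 control arrays, so this agreement is partly fixed by them. Against control on its own, the BOP1 line had 1003 rises (8.26% of genes tested) and 621 falls (5.11%), the CKS2 line 1004 (8.27%) and 657 (5.41%), and the NFIL3 line 1059 (8.72%) and 657 (5.41%). Of the pooled rises 606 (37.4%) passed in all 3 lines, 4.99% of genes tested, and of the pooled falls 270 (22.7%), 2.22% of genes tested and 7.22% with the rises. Another 331 rises and 284 falls passed in 2 lines, 437 and 411 in 1 line, and 246 and 226 in none but the pool. The count of genes called in every line was 876, and it was 405 without control array 1 and 321 without control array 2. Without either array of the BOP1 line 404 and 457 passed, without either of the CKS2 line 455 and 452, and 439 without NFIL3 array 1. All 6 line arrays lay above both control arrays for 1547 of the rises and below both for 1122 of the falls, where the same held for 20.0% and 17.9% of all genes tested. Across genes the range between the highest and the lowest line was 0.16 at the median. The standard error of a single line's difference from control was 0.13 at the median. It holds the scatter of the control arrays, which does not enter the range, so it is no measure of that range. In simulated data with as many genes and arrays, 50 genes were changed in the lines by each of several sizes. Of those changed by 0.5 on the log2 scale 52% were called in the pooled comparison, and of those changed by 1, 98%. Far fewer genes changed there than were called here, which makes the adjusted threshold stricter, so the shares may differ in the real data.

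TAGLN was the largest fall. It stood at 9.91 and 10.18 in control, and at 7.32 and 7.14, 7.07 and 7.00, and 7.30 and 7.08 in the BOP1, CKS2 and NFIL3 lines. Every line array was more than 2 log2 units below either control array, and the pooled difference of -2.90 (SE 0.123, adjusted p = 5.19e-10) corresponds to a level 7.44-fold lower. The lines' own differences were -2.82, -3.01 and -2.86 in the order BOP1, CKS2, NFIL3. MYL9, at 9.22 and 9.08 in control, stood between 7.79 and 8.06 on the 6 line arrays, with no overlap, and fell by 1.24 (SE 0.086, adjusted p = 2.57e-07; -1.23, -1.32 and -1.18 by line). Second probes of both genes gave -2.70 and -1.23. MYL2, a myosin light chain of cardiac and slow skeletal muscle, was at 6.88 and 7.18 in control and was detected on 1 of the 6 line arrays, CKS2 array 2 at 6.40. The other 5 lay between 5.29 and 5.53, and the pooled difference was -1.45 (SE 0.185, adjusted p = 7.36e-05).

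Genes of the contractile list were called in both directions, the rises at a share below that of all genes. The list held contractile genes and targets of the actin-regulated factor SRF. Of its 30 measured members, 5 fell (16.7%, against 9.81% of all genes tested), 3 rose (10%, against 13.3%) and 22 did not pass. The list median was -0.06 against 0.007 for all genes. With median scaling 9 fell and 2 rose, at a list median of -0.19 against -0.05 for all genes. CCN2, a matricellular growth factor, fell by 0.65 (SE 0.116, adjusted p = 0.00112), and its relative CCN1 by 0.32. In the other direction ACTA2, the smooth muscle actin, stood at 9.34 and 9.41 in control and between 9.70 and 9.99 in the lines, 0.51 higher (adjusted p = 0.00212). VCL (vinculin) rose by 0.34 and TGFB1I1, a focal adhesion adaptor, by 0.34. ACTA2, VCL, TGFB1I1 and CCN1 were picked for mention with their values in view. Of the 12 smooth muscle markers, MYH11, ACTG2, CNN1, DES, LMOD1, MYOCD, CASQ2 and SYNPO2 were detected on no array, and TAGLN, MYL9, ACTA2 and SYNM on all 8. The summed linear level of the list was 2780 to 3040 in control and 1970 to 2370 in the lines. Of the 4 list members tested, TAGLN and MYL9 fell and ACTA2 and SYNM rose, so the sum holds the falls of the markers themselves. The part of the sum in these results was not tested. In such bulk RNA, fewer cells of a type and less RNA per cell cannot be told apart.

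Of the 14 rises with the largest fitted differences, 12 were below background on both control arrays, and their place in that order rests on values at background. Among genes detected in control, KRT23, ABCC3 and TM7SF2, with measured folds of 2.38, 2.37 and 2.25, come after them in fitted difference but exceed the bounds of most. ATOH8 was at 5.44 and 5.02 in control, detected on neither array, and at 7.31 and 7.14, 7.04 and 7.04, and 7.26 and 7.32 in the BOP1, CKS2 and NFIL3 lines. Its difference was 1.95 (SE 0.186, adjusted p = 5.88e-06), which is at least 1.90-fold higher against the detection limit. AKR1C3 was at 6.16 and 5.66 in control, again undetected, and at 7.70 and 7.68, 8.05 and 7.95, and 7.55 and 7.65 in the 3 lines. The groups were far apart, and its rise of 1.85 (SE 0.121, adjusted p = 1.54e-07) was at least 2.84-fold, with 1.78, 2.09 and 1.69 in the single lines. RCAN2 was detected on all 8 arrays, at 6.41 and 6.39 in control and at 7.93 and 8.09, 7.74 and 8.01, and 8.14 and 7.90 in the lines. It rose by 1.57 (SE 0.161, adjusted p = 1.16e-05), and the single lines gave 1.61, 1.48 and 1.62.

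HPGD, the enzyme that inactivates prostaglandins, rose from 5.90 and 6.04 to between 7.32 and 7.69 (median 7.53), at least 2.41-fold (adjusted p = 9.77e-08). PADI3, which converts arginine residues to citrulline, rose at least 2.36-fold, and the thiol methyltransferase TMT1A at least 2.30-fold. DRAXIN, a repulsive axon guidance protein, rose at least 1.5-fold, ERV3-1, the envelope gene of an endogenous retrovirus, at least 1.56-fold, and SYNC, an intermediate filament protein, at least 1.41-fold. SSPOP, a pseudogene, FSTL5, a follistatin-like secreted protein, and SNAI3-AS1, an antisense RNA, had fitted differences of 1.39, 1.56 and 1.32 and bounds of at least 1.35-fold, 1.09-fold and 1.10-fold. All of these were undetected on both control arrays and detected on all 6 line arrays, which the naming rule required. The lowest detected level was 6.25 and 6.26 on the control arrays and 5.88 to 6.16 on the line arrays. The lowest line values of FSTL5 (6.045) and SNAI3-AS1 (6.19) lay below that of the control arrays. CREBRF, a regulator of the stress factor CREB3, was detected throughout, from 6.79 and 6.43 in control to between 7.75 and 8.17, and a second probe of it gave 0.69. CYP1A1, a cytochrome P450 that oxidises aromatic hydrocarbons, stood at 5.81 and 5.64 in control and at 7.37 and 7.46, 7.23 and 6.83, and 6.70 and 6.72 in the lines. It rose by 1.33 (SE 0.340, adjusted p = 0.0109), at least 1.74-fold, but without control array 1 (1.41, adjusted p = 0.0621) or control array 2 (1.24, adjusted p = 0.106) CYP1A1 did not pass.

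**Figure D3:**
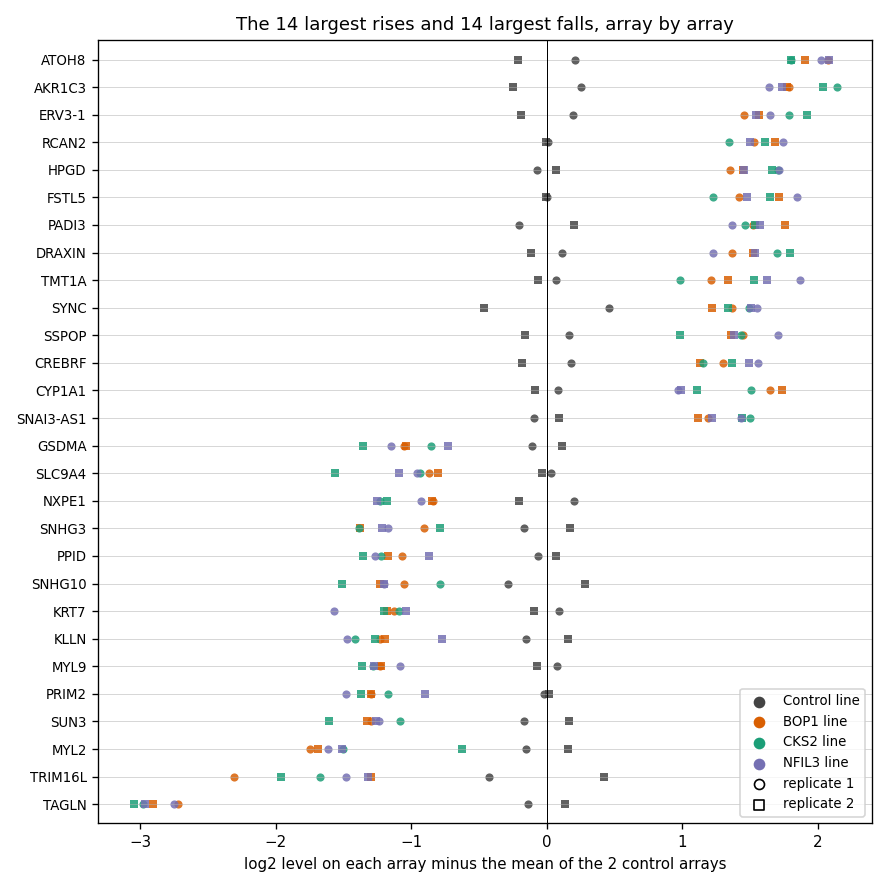
For the 14 rises and 14 falls of largest fitted difference, each point is the log2 level on an array minus the mean of the 2 control arrays. Grey points are control, coloured points the BOP1, CKS2 and NFIL3 lines, and circles and squares are replicates 1 and 2. The colours of the lines mix on some rows, such as TAGLN, and lie in separate pairs on others, such as AKR1C3 and CYP1A1. The MYL2 value of CKS2 array 2 lies nearer to control than the other 5 line arrays do.

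The other large falls came from several systems. SUN3, a nuclear envelope protein best known from testis, was at 7.89 and 8.22 in control and between 6.45 and 6.97 (median 6.78) in the lines, 1.30 lower (SE 0.138, adjusted p = 1.61e-05). PRIM2, the large subunit of DNA primase, was at 9.50 and 9.54 and between 8.04 and 8.62 (median 8.22), 1.25 lower (SE 0.224, adjusted p = 0.00111). KRT7, a keratin of simple ducts, was at 8.09 and 7.91 and between 6.43 and 6.96 (median 6.84), 1.20 lower (adjusted p = 0.000386). None of these groups overlapped, which the rule for naming the largest falls required. PPID, a cyclophilin that works with HSP90, fell by 1.16 at its brightest probe and showed -1.11 at another. SLC9A4, a sodium-hydrogen exchanger, fell by 1.03. NXPE1, a gene of the neurexophilin family, was undetected on all 6 line arrays and at least 1.51-fold lower, and did not pass without control array 1 (-0.84, adjusted p = 0.0923). TRIM16L (-1.67, detected on 4 of 6 line arrays), the apoptosis gene KLLN (-1.23) and the small nucleolar RNA host SNHG10 (-1.16) did not pass without control array 2, at -1.25, -1.07 and -0.88. The host gene SNHG3 (-1.14, detected on 3 of 6 line arrays) and the pore-forming gasdermin GSDMA (-1.03) did not pass without control array 1 (-1.31 and -1.14) or control array 2 (-0.97 and -0.92).

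Genes that handle xenobiotics and oxidants were among the most widely raised. Around the aryl hydrocarbon receptor AHR, a sensor of aromatic compounds, 14 genes were measured. Of these 9 rose (64.3%, against 13.3% of all genes tested) and none fell (against 9.81%). All 14 differences were above 0, and the median was 0.41. CYP1B1, a target of this receptor, was at 7.56 and 7.48 in control and between 8.23 and 8.59 (median 8.37) in the lines, 0.87 higher (SE 0.115, adjusted p = 0.000102). TIPARP, a feedback inhibitor of AHR, rose by 0.62, the quinone reductase NQO1 by 0.60, and AHR itself by 0.35. In each of these 4 genes the groups did not overlap, which their choice by smallest pooled p favours. The single lines gave list medians of 0.41, 0.51 and 0.40. The count was 6 without control array 1 and 3 without control array 2, where AHR (0.29) and NQO1 (0.48) did not pass.

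Of 23 measured aldo-keto reductases and targets of the oxidant-sensing factor NRF2, 13 rose and 3 fell, with a median of 0.23. The shares were 56.5% and 13%, against 13.3% and 9.81% of all genes tested. ABCC3, a transporter of conjugated compounds, was at 10.86 and 10.87 in control and between 11.89 and 12.31 (median 12.09) in the lines, 1.24 higher (SE 0.115, adjusted p = 5.20e-06). Its relative ABCC2 was at 11.36 and 11.13 and between 12.18 and 12.54 (median 12.25), 1.06 higher (SE 0.085, adjusted p = 1.13e-06). EPHX1, an epoxide hydrolase, rose by 0.50. AKR1C2 and AKR1C4, of the same gene cluster as AKR1C3, were undetected in control and at least 1.14-fold and 1.66-fold higher. The AKR1C genes are close copies of one another, and whether their probes tell them apart was not tested. SLC7A11, the cystine transporter and another target of NRF2, fell by 0.69 (adjusted p = 0.00981), and AKR1B10 by 0.48 (adjusted p = 0.045). AKR1C2, AKR1C4, SLC7A11 and AKR1B10 were picked for mention with their values in view. The 13 rises became 8 with median scaling, 8 without control array 1 and 5 without control array 2.

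Cholesterol synthesis was the list with the highest share of rises. Cells make cholesterol from acetyl-CoA through mevalonate, squalene and lanosterol, and the enzymes of the pathway are controlled together by the SREBP factors. Of 20 measured genes of synthesis and uptake, 16 rose (80%, against 13.3% of all genes tested) and none fell (against 9.81%). Of the rises 14 passed in every line. The list median was 0.54 (0.54, 0.53 and 0.48 in the BOP1, CKS2 and NFIL3 lines). The 4 members named next were chosen by smallest pooled p, which favours groups that lie apart. TM7SF2, a sterol reductase late in the pathway, was at 10.39 and 10.56 in control and at 11.56 and 11.53, 11.78 and 11.71, and 11.63 and 11.66 in the 3 lines, 1.17 higher (SE 0.092, adjusted p = 1.13e-06). HMGCS1, which makes the precursor of mevalonate, was at 12.21 and 12.13 and between 12.92 and 13.14 (median 13.03), 0.86 higher (SE 0.082, adjusted p = 5.88e-06). LSS, which closes the sterol ring, was at 11.16 and 11.34 and between 11.96 and 12.15 (median 12.03), 0.79 higher (SE 0.085, adjusted p = 1.74e-05). SC5D, a sterol desaturase, was at 10.07 and 10.01 and between 10.75 and 10.93 (median 10.85), 0.81 higher (SE 0.104, adjusted p = 7.42e-05). In all 4 the groups lay clearly apart, and the list had 12 rises without control array 1 and 13 without control array 2.

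Promoters of these 4 genes are shown because their group moved together. RefSeq windows of 300 bases (250 before and 50 after the gene start, GRCh38.p14) existed for 15 of the 16 rising genes, and all 15 held the letters CCAAT on either strand. It was 1 of 3 among the members that did not pass, 43.4% of 9702 tested genes with a window, 44% of the genes that rose and 34.6% of all 35116 windows. The spaced sterol element TCACNCCAC, searched on both strands, was found in none of the 15. It was in 1 of the 3 members that did not pass and in only 1.39% of tested genes with a window. CCAAT was 1 of 9 motifs searched and was chosen for printing after its counts were seen. A match describes letters and is neither a site nor a cause. Below, capitals mark CCAAT read on the opposite strand (ATTGG), 5′ to 3′ along the gene, for TM7SF2 (chr11:65111622-65111921, plus strand), HMGCS1 (chr5:43313363-43313662, minus), LSS (chr21:46228725-46229024, minus) and SC5D (chr11:121292521-121292820, plus).
TM7SF2: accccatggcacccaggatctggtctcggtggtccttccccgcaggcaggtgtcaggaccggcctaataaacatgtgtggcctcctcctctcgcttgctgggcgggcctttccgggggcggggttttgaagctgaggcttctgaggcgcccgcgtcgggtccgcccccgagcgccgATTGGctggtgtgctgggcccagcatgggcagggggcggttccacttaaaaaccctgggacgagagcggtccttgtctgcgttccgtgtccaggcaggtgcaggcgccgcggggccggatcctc
HMGCS1: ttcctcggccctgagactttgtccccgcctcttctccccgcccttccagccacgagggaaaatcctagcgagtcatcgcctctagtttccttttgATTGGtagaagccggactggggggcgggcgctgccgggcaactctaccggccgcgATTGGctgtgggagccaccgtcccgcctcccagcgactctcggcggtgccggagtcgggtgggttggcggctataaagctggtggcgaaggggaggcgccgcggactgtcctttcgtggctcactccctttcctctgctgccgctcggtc
LSS: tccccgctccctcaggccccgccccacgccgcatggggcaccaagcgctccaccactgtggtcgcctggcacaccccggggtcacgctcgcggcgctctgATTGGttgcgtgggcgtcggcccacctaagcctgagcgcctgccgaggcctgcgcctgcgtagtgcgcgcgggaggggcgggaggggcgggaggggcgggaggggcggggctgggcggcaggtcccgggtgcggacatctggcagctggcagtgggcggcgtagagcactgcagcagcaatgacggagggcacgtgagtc
SC5D: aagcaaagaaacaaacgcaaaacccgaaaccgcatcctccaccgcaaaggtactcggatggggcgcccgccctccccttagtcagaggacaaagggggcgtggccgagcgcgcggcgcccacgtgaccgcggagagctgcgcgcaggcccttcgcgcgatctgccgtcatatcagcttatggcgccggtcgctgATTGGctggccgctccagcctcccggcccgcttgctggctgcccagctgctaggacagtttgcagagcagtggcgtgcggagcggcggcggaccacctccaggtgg

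Of 21 fatty acid synthesis genes, 9 rose, 1 fell and 11 did not pass, with a median of 0.26. LPIN1, a phosphatidate phosphatase, was at 10.70 and 10.76 in control and between 11.46 and 11.65 (median 11.55) in the lines, 0.83 higher (adjusted p = 2.31e-05). MLXIPL, a glucose-responsive transcription factor, rose by 0.83, the acetyl-CoA synthetase ACSS2 by 0.74 and the elongase ELOVL6 by 0.56, all with no overlap between groups. Their counts without control array 1 or control array 2 were 6 and 6.

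Of 33 glycolytic and hypoxia-inducible genes, 9 fell, none rose and 24 did not pass, and 11 had differences above 0 (median -0.14). HK2, the inducible hexokinase, was at 10.97 and 10.82 in control and at 9.94 and 10.02, 10.34 and 10.14, and 10.13 and 10.10 in the lines, 0.78 lower (SE 0.091, adjusted p = 3.38e-05). BNIP3, a mitophagy receptor, fell by 0.56, ENO2, an enolase, by 0.51, and ANKRD37, a small hypoxia-induced protein, by 0.54. No line array of these reached the control level. The falls became 17 with median scaling.

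BMP signals act through SMAD factors to raise the ID genes, which block other helix-loop-helix factors. Of 21 genes in a list built on ATOH8, the ID genes and BMP or TGF-beta targets, 8 rose and none fell (median 0.19). The rises were 38.1%, against 13.3% of all genes tested, where 9.81% fell. ID3 was at 12.18 and 12.55 in control and between 12.93 and 13.26 (median 12.98) in the lines, 0.68 higher (SE 0.115, adjusted p = 0.000786). SMAD6, an inhibitor of the pathway, rose by 0.58 and ID1 by 0.37, although ID1 did not pass with median scaling (0.15, adjusted p = 0.25) or without control array 1 (0.33, adjusted p = 0.0814). The 8 rises became 5 without control array 1 and 4 without control array 2. Of 23 Wnt targets 5 rose (21.7%, against 13.3% of all genes tested) and 2 fell (8.7%, against 9.81%). This balance turned to 3 rises and 4 falls with median scaling. SOX4 rose by 0.54, SOX9 by 0.38 and the feedback inhibitor AXIN2 by 0.33, while DACT1, another modulator of the pathway, fell by 0.99. DACT1 was detected on 3 of the 6 line arrays, and its second probe (-0.435) did not pass. AXIN2 did not pass with median scaling (0.19). The 5 became 3 without control array 2, and the list median of -0.008 changed sign between settings.

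FOXO factors, which insulin and PI3 kinase signalling keep out of the nucleus, turn on genes of growth arrest and protein breakdown. Of 27 of their targets, 14 rose (51.9%, against 13.3% of all genes tested) and none fell (against 9.81%), with a median of 0.30. KLF6, a tumour suppressor zinc finger factor, was at 10.93 and 10.86 in control and between 11.58 and 11.86 (median 11.82) in the lines, 0.89 higher (SE 0.101, adjusted p = 2.66e-05). CCNG2, an atypical cyclin of resting cells, was at 8.78 and 8.84 and between 9.63 and 9.93 (median 9.68), 0.93 higher (adjusted p = 0.000371). FBXO32, a ubiquitin ligase of muscle wasting, rose by 0.82 and the receptor ERBB3 by 0.51. The 14 became 9 with median scaling, 9 without control array 1 and 7 without control array 2.

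Of 21 p53 targets 7 rose (33.3%, against 13.3% of all genes tested) and 1 fell (4.76%, against 9.81%), in cells whose line is known for mutant p53. The median was 0.22. TP53INP1, a stress-response gene, was at 9.82 and 9.60 in control and between 10.50 and 10.98 (median 10.78), 1.05 higher (SE 0.100, adjusted p = 5.88e-06). TP53I3, a quinone reductase, rose by 0.78, the secreted stress cytokine GDF15 by 1.04 and the lysosomal fucosidase FUCA1 by 0.57. The count was 5 without control array 1 and 4 without control array 2. Of 30 lysosome and autophagy genes 8 rose (26.7%, against 13.3% of all genes tested) and 1 fell. The rises included NEU1 (0.69), WIPI1 (0.67), GABARAPL1 (0.64) and TPP1 (0.61). The list had 4 rises without control array 1, without control array 2 and with median scaling, and its median of 0.09 was -0.02 with median scaling. Histone genes also held rises, 4 of 13 (30.8%, against 13.3% of all genes tested), with none falling (against 9.81%). H2BC5 rose by 1.05, H4C14 by 0.97, H2AC6 by 0.75 and H2BC21 by 0.49. The lines' own H2BC21 differences were 0.546, 0.671 and 0.265 in the order BOP1, CKS2, NFIL3. H2BC21 did not pass without control array 1 (0.42), control array 2 (0.57) or the CKS2 line (0.41). It also missed in each fit of the 8 DMSO arrays alone (limma adjusted p from 0.0564 to 0.0807). Histone genes are members of multigene families whose close copies the probes may not tell apart.

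At the cell surface, 11 of 23 integrins, laminins and matrix proteases rose (47.8%, against 13.3% of all genes tested) and 1 fell (4.35%, against 9.81%). The median was 0.22. ITGA2, the collagen-binding integrin subunit, was at 9.29 and 8.98 in control and between 9.97 and 10.29 (median 10.03) in the lines, 0.96 higher (SE 0.133, adjusted p = 0.000161). LAMB2 and LAMA5, laminin chains of basement membranes, rose by 0.57 and 0.45, and MMP9, a gelatinase undetected in control, by 0.73 in the fit (at least 1.01-fold). LAMB2 did not pass without control array 2 (0.44), nor LAMA5 with median scaling (0.23). The count was 9 without control array 1 and 3 without control array 2, and 5 with median scaling. Of 25 axon guidance genes 9 rose (36%, against 13.3% of all genes tested) and 2 fell (8%, against 9.81%). Besides DRAXIN, SEMA3A rose by 0.79 and SEMA3B by 0.56, both secreted semaphorins, while netrin NTN1 fell by 0.73 (adjusted p = 0.0014). Of 27 epithelial junction and keratin genes 5 rose (18.5%, against 13.3% of all genes tested) and 2 fell (7.41%, against 9.81%). This balance turned to 2 rises and 5 falls with median scaling. KRT23 was at 9.37 and 9.47 in control and between 10.52 and 10.88 (median 10.66) in the lines. Its rise of 1.25 (SE 0.160, adjusted p = 7.36e-05) was opposite to KRT7 at -1.20. KRT80 fell by 0.35 and did not pass without control array 1 (-0.32). It also missed with the 8 DMSO arrays in 2 groups (limma adjusted p = 0.0636), and with the line as a random block in that fit (adjusted p = 0.07). CLDN2, a pore-forming claudin undetected in control, rose at least 1.23-fold but did not pass without control array 1 (0.68 in the fit) or control array 2 (0.77). The 5 epithelial rises became 2 and 1 without control array 1 and control array 2.

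Immediate early genes and feedback inhibitors of ERK rose in 7 of 29 cases (24.1%, against 13.3% of all genes tested) and fell in 1, and 21 did not pass (median 0.12). EGR1 was at 10.57 and 10.64 in control and at 11.71 and 11.50, 11.13 and 11.22, and 11.31 and 11.14 in the lines, 0.73 higher (SE 0.095, adjusted p = 8.99e-05). The phosphatases DUSP4 and DUSP6 rose by 0.80 and 0.60 and FOS by 0.66. The list had 4 rises without control array 1, control array 2 or NFIL3 array 1, with no filter and with the line as a random block. Interferon genes gave 6 rises (20.7%, against 13.3% of all genes tested) and 1 fall (3.45%, against 9.81%) of 29. IFITM1, a restriction factor undetected in control, rose at least 1.47-fold, IFIT3 at least 1.36-fold, IFIT2 by 0.64 and ISG20 by 0.48. They became 4 without control array 1 and 2 without control array 2, where IFIT2 stood at 0.35. IFIT3 did not pass without control array 1 (0.64), nor ISG20 without control array 1 (0.46) or control array 2 (0.51).

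Among genes of growth, falls were the more frequent direction. Ribosome biogenesis, the pathway in which BOP1 acts, fell in 15 of 37 genes (40.5%, against 9.81% of all genes tested) and rose in none (against 13.3%). The median was -0.18 (-0.20, -0.13 and -0.21 in the BOP1, CKS2 and NFIL3 lines). UTP20, a factor of small subunit assembly, was at 7.35 and 7.65 in control and between 6.56 and 6.83 (median 6.64) in the lines, 0.84 lower (SE 0.119, adjusted p = 0.000180). RRP1B, a nucleolar protein, was at 10.53 and 10.53 and between 9.92 and 10.09 (median 10.00), 0.53 lower (SE 0.066, adjusted p = 5.83e-05), and LYAR, a nucleolar growth regulator, fell by 0.46. The falls became 10 without control array 1, 9 without control array 2 and 26 with median scaling. Cytosolic ribosomal proteins did not share this: 3 of 34 rose (8.82%, against 13.3% of all genes tested) and 1 fell (2.94%, against 9.81%). Of 30 mitochondrial ribosomal proteins all had differences below 0, from -0.28 to -0.04. Of these 8 fell (26.7%, against 9.81% of all genes tested), MRPS12 (-0.28), MRPL4 (-0.28), MRPL44 (-0.27) and MRPS15 (-0.24) among them. The count depended on single arrays, at 3 and 0 without control array 1 and control array 2, 4 without BOP1 array 2 or NFIL3 array 1, 5 without CKS2 array 1 or NFIL3 array 2, 2 with the line as a random block, where MRPL4 (adjusted p = 0.0715) and MRPS15 (adjusted p = 0.0545) did not pass, and 28 with median scaling.

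DNA replication genes fell in 14 of 40 cases (35%, against 9.81% of all genes tested) and rose in none (against 13.3%), at a median of -0.25. Besides PRIM2 they included MCM10, a helicase partner, at -0.39, and the polymerase subunits POLD1 at -0.34 and POLE2 at -0.29. MCM10 (-0.30) and POLE2 (-0.19) did not pass without control array 2. Of 37 genes of G2/M and mitosis 8 fell (21.6%, against 9.81% of all genes tested) and none rose (against 13.3%), at a median of -0.19. FOXM1, the transcription factor that drives them, was at 11.17 and 11.33 in control and between 10.52 and 10.69 (median 10.61) in the lines, 0.64 lower (SE 0.129, adjusted p = 0.0024). The kinase PLK1 fell by 0.51, MAD2L1 of the spindle checkpoint by 0.34 and BIRC5 (survivin) by 0.32. FOXM1 did not pass without control array 2 (-0.56), PLK1 not without control array 1 (-0.42), and MAD2L1 and BIRC5 not without control array 1 (-0.30 and -0.32) or control array 2 (-0.38 and -0.33). MAD2L1 also missed without the NFIL3 line (-0.30), BOP1 array 2 (-0.29) or NFIL3 array 1 (-0.295). It missed with the 8 DMSO arrays in 4 groups (limma adjusted p = 0.0587) and with the line as a random block (adjusted p = 0.0595). BIRC5 also missed without the CKS2 line (-0.29). Without control array 1 and control array 2 the replication falls became 6 and 4 and the mitotic falls 1 and 1. The mitotic falls were also 4 without NFIL3 array 1 and 5 without BOP1 array 2 or CKS2 array 2, and with median scaling there were 26 replication and 18 mitotic falls.

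Falls also outnumbered rises among genes of protein synthesis and folding. Of 18 aminoacyl-tRNA synthetases 10 fell (55.6%, against 9.81% of all genes tested) and 1 rose (5.56%, against 13.3%), at a median of -0.26. YARS1 was at 13.22 and 13.12 in control and between 12.55 and 12.73 (median 12.68) in the lines, 0.51 lower (SE 0.077, adjusted p = 0.000283), FARSA fell by 0.41 and WARS1 by 0.37. FARSB, the other chain of the enzyme that FARSA belongs to, rose by 0.34, although it did not pass with median scaling (0.11, adjusted p = 0.385) or without control array 2 (0.30). WARS1 did not pass without control array 2 either (-0.28). Targets of the amino acid stress factor ATF4 fell in 8 of 26 cases (30.8%, against 9.81% of all genes tested) and rose in 2 (7.69%, against 13.3%). They included the amino acid transporter SLC7A5 (-0.50), the serine enzyme PSAT1 (-0.54) and asparagine synthetase ASNS (-0.47). SLC3A2, the transporter's partner, was at -0.42 at its brightest probe and -0.03 as a mean of its probes. Of 21 cytosolic heat shock genes 11 fell (52.4%, against 9.81% of all genes tested) and none rose (against 13.3%), at a median of -0.26. CHORDC1, an HSP90 partner, was at 11.86 and 11.98 and between 11.16 and 11.53 (median 11.28), 0.62 lower (SE 0.087, adjusted p = 0.000165), and the HSP90 co-chaperones FKBP4 and STIP1 fell by 0.48 and 0.47, and neither passed without control array 2 (-0.41 and -0.40). Without control array 1 and control array 2 the falls became 5 and 3 for the synthetases, 5 and 4 for ATF4 targets and 6 and 6 for heat shock genes, and 18 heat shock genes fell with median scaling.

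**Figure D4:**
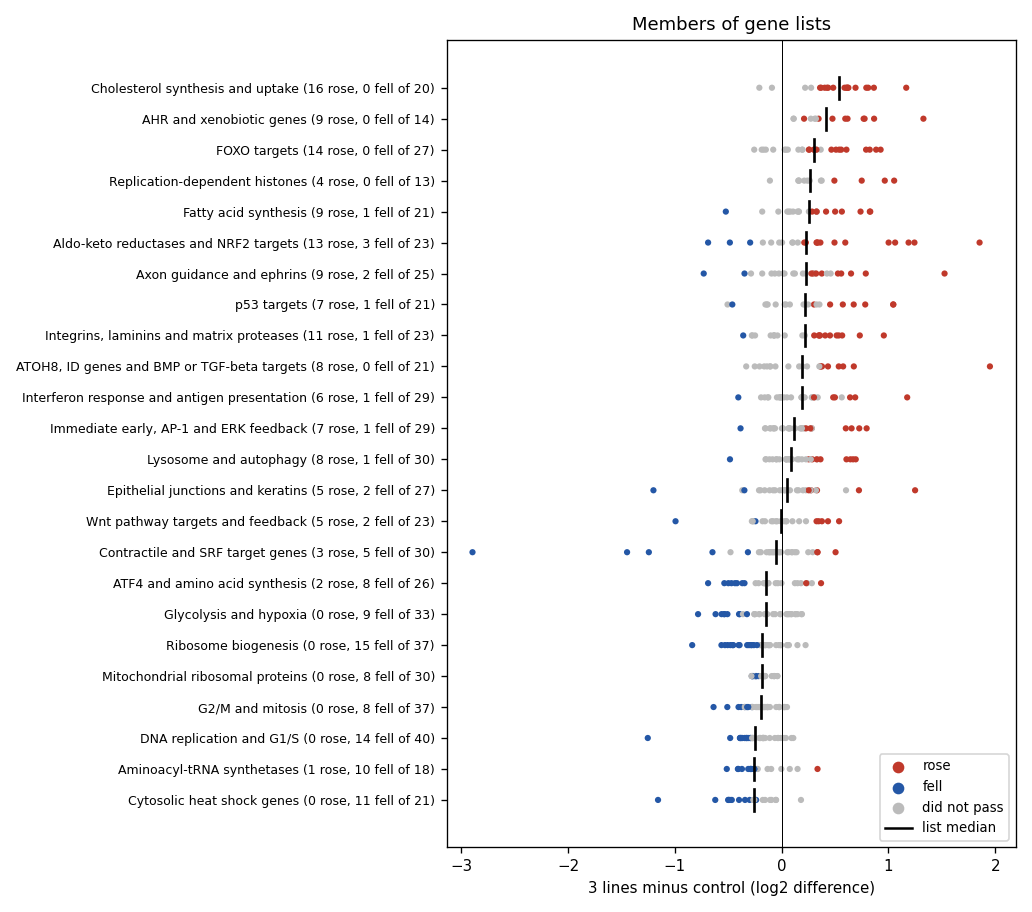
Each point is a member of a gene list, placed by its pooled log2 difference (3 lines minus control), with 24 lists on the vertical axis ordered by their median (black bar). Red points rose, blue points fell and grey points did not pass; cholesterol synthesis (16 of 20 rose) lies at the top and cytosolic heat shock genes (11 of 21 fell) at the bottom.

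Over all genes tested, 13.3% rose and 9.81% fell. The remaining 13 lists of pathway genes had at most 3 calls in a direction and medians between -0.12 and 0.17. Among them the respiratory chain had 1 rise and 2 falls in 34 genes, the proteasome 1 fall in 27, splicing factors 2 rises and 2 falls in 36 and housekeeping genes 1 rise and 2 falls in 26. Notch genes gave 1 rise and 3 falls in 18, the unfolded protein response 1 and 3 in 20, NF-kB and chemokine genes 1 and 1 in 14, and metallothioneins and zinc transporters 3 falls in 13. Prostaglandin genes gave 3 rises and 3 falls in 13. Beyond HPGD these included the phospholipase PLA2G4C, undetected in control and at least 1.63-fold higher, and the prostaglandin E synthase PTGES, 0.60 higher. Around RCAN2, the list of calcineurin and NFAT genes had 1 rise and 3 falls in 16: NFATC1, a factor that calcineurin activates, was at 8.01 and 7.92 in control and between 6.70 and 7.33 in the lines, 0.89 lower (adjusted p = 9.67e-05). Mesenchymal genes gave 2 rises and 3 falls in 11, with a median of 0.02. PLA2G4C, PTGES and NFATC1 were picked for mention with their values in view.

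Differences among the 3 lines were few. An F test over the line means, into which the control arrays do not enter, called 2 of 12141 genes (0.0165%), with 738 (6.08%) at an unadjusted p under 0.05. DDIT3, a stress-induced bZIP factor, was at 9.83 and 9.71, 9.05 and 8.81, and 9.15 and 9.12 in the BOP1, CKS2 and NFIL3 lines and at 9.08 and 9.12 in control (adjusted p among lines 0.0243). Its own difference from control was 0.67 in the BOP1 line, the only one of the 3 to pass (adjusted p = 0.00117), beside -0.17 and 0.04. NMB, the peptide neuromedin B, was at 9.24 and 9.15, 9.45 and 9.55, and 9.93 and 9.86 in the same order and at 9.45 and 9.29 in control (adjusted p among lines 0.0304). Neither gene passed in the pooled comparison. No gene passed this test without BOP1 array 1, BOP1 array 2, CKS2 array 2 or NFIL3 array 1, with no filter on detection, or in a fit of the 8 DMSO arrays alone. The next smallest values belonged to TNFAIP3 (adjusted p = 0.174) and ZNF248 (adjusted p = 0.202). None of the 2811 genes called in the pool passed this test, and 105 of the rises and 119 of the falls had an unadjusted p under 0.05.

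The called genes with the widest spread over the lines were DACT1, H19, CISD3 and TTC7B. DACT1 was at 7.04 and 6.85 in control, and at 5.30 and 5.64, 6.09 and 5.88, and 6.63 and 6.17 in the BOP1, CKS2 and NFIL3 lines, with own differences of -1.48, -0.96 and -0.54. It was detected on 3 of the 6 line arrays. Both BOP1 values lay below the lowest detected level of their array (5.88 and 6.01), so that line's difference depends on values at background. A second DACT1 probe gave -0.435 (limma adjusted p = 0.0693 in the fit of all probes). H19, an imprinted long noncoding RNA, gave -1.06, -0.16 and -0.72, with the CKS2 arrays at 7.29 and 7.30 near the control arrays at 7.4 and 7.5. CISD3, a mitochondrial iron-sulfur protein, gave -0.16, -0.49 and -1.02, and TTC7B, a scaffold of a lipid kinase complex, -0.31, -0.63 and -1.16. CISD3 was detected on 5 and TTC7B on 4 of the 6 line arrays. None of the 4 passed the test among lines (adjusted p from 0.606 to 0.763). H19, CISD3 and TTC7B did not pass in the pool without control array 1 (-0.69, -0.41 and -0.81) or control array 2 (-0.60, -0.70 and -0.58), and CISD3 and TTC7B not without the NFIL3 line (-0.32 and -0.47). H19 also missed without the BOP1 line (-0.44). With the 8 DMSO arrays in 2 groups and the line as a random block, their adjusted p was 0.0939 for H19, 0.125 for CISD3 and 0.0728 for TTC7B, and without that block 0.0875, 0.119 and 0.0669. CISD3 also missed without BOP1 array 1, CKS2 array 2 or NFIL3 array 1, and TTC7B without BOP1 array 2, CKS2 array 1 or NFIL3 array 2. In the simulated data, with 50 genes changed at each size, a change of 0.5 in a single line was called in 32% of genes, and a change of 1 in 94%. Many more genes passed there than the 2 called here, which makes the adjusted threshold easier to pass, so the shares may be lower in the real data. Many small differences among lines would not be called with this number of arrays.

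Control was measured in DMSO only, and the markers can be set beside the lines' other groups, in which the lines received an inhibitor in place of the solvent for the same 24 h. Mean TAGLN was 10.05 in control and between 7.03 and 7.87 in the other 11 groups, and mean MYL9 was 9.15 against 7.78 to 8.23. AKR1C3 was at 5.91 in control and lowest elsewhere in the NFIL3 line with Rapamycin, at 6.92. ATOH8 was undetected in control and also in the CKS2 and NFIL3 lines with SB203580, an inhibitor of p38 kinase, where its means were 5.21 and 5.35 beside 5.23 in control and 6.86 to 7.35 in the remaining groups. RCAN2 was at 7.23 and 7.28 in the same SB203580 groups, between control at 6.40 and the 7.88 to 8.80 of the others. These levels are given as a description with no test.

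**Figure D5:**
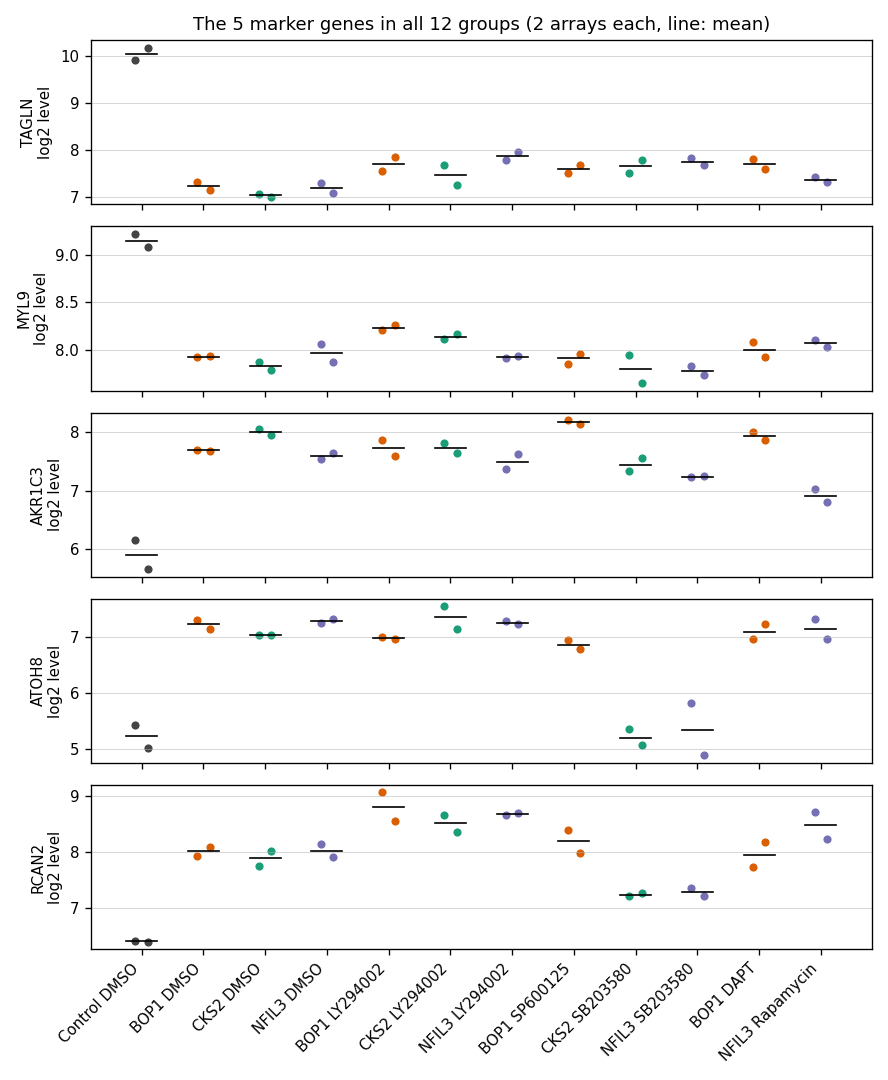
Log2 levels of TAGLN, MYL9, AKR1C3, ATOH8 and RCAN2 (vertical axes) on the 2 arrays of each of the 12 groups (horizontal axis), with a bar at the group mean and colours for the lines. Control stands apart from all other groups for TAGLN, MYL9, AKR1C3 and RCAN2, whereas ATOH8 in the SB203580 groups lies at the control level of about 5.23.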

How the data were processed

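RNA from 24 cultures of SW480 lines was measured on Illumina HumanHT-12 v4 arrays. The authors deposited, per the file headers, a bead summary intensity and a detection p-value for each probe and array, without normalization, and a table of processed intensity values, which served as an alternative. GenomeStudio 2010.1 and Partek are listed, per the submitters' processing notes, and their roles are not; no further step is given in the sources used here. Probes were named through GEO's platform annotation: 30113 of 47323 had 1 gene symbol, 8 several and 17202 none.

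From the deposited intensities, limma 3.58.1 (R 4.3.3) corrected background by the detection p-values (normal-exponential model), added an offset of 16, quantile normalized and took log2. Probes with a detection p under 0.01 on at least 2 of 24 arrays were kept (21608), and the brightest stood for each gene (12141). One model with 12 group means was fitted to all 24 arrays (12 residual and 4.44 prior degrees of freedom). The pooled contrast was the equal-weight mean of the 3 lines minus control, with Benjamini-Hochberg adjustment over 12141 genes and a threshold of 0.05. A fold against a group below background on every array is a bound: the other group's mean against the larger of the measured level and the lowest detected level of each array. The median standard error was 0.106 for the pooled difference and 0.129 for a single line; precision is limited by the number of arrays. The fit was tested on simulated data.

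The members, the markers and the 37 pathway lists, all with tested members, were chosen with earlier results of these data known, as were the other cells' markers, and lists are given as counts and medians without a test. Named genes were the 5 markers, the introduced genes, the 14 rises and 14 falls of largest fitted difference (groups apart, detected on every array of the higher side), the 4 called genes of widest range over lines, the 4 with the smallest p among lines, and up to 4 called members, by smallest pooled p, of each of 24 lists with at least 4 calls in a direction. There were 25 alternatives. Plots were drawn with matplotlib 3.10.9 (Python 3.11.15).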

Additional observations from a re-analysis of the deposited data

Results flagged for a closer look

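Among 33 sets of 6 line arrays that were examined for a value far from the rest (the named largest changes, the markers, the introduced genes, probes detected and mean signal), 2 held one, where chance gives about 5% of sets. MYL2 was at 6.40 on array 2 of the CKS2 line, against 5.29 to 5.53 on the other 5 line arrays. KRT7 was at 6.43 on array 1 of the NFIL3 line, against 6.8 to 6.96 on the other 5. In both genes the array stayed below the control arrays.

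DDIT3 and NMB differed among the 3 lines in their difference from control by the F test of the line means (adjusted p = 0.0243 and 0.0304). DDIT3 was higher than control in the BOP1 line (0.67) and not in CKS2 (-0.17) or NFIL3 (0.04) cells. NMB was higher in the NFIL3 line (0.53), with -0.17 for BOP1 and 0.13 for CKS2. Neither gene passed, and no other did, without BOP1 array 1, BOP1 array 2, CKS2 array 2 or NFIL3 array 1, with no filter on detection, or in a fit of the 8 DMSO arrays alone.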

How the results depend on the processing

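The count of 2811 genes stayed between 2391 and 3417 under the alternatives that kept all 8 DMSO arrays and between 2421 and 2501 without a whole line. Leaving out an array gave 1074 to 2576 calls, 709 to 1518 rises, 365 to 1058 falls, 74 to 115 genes past 2-fold and 321 to 591 called in every line, with the lowest counts of calls without a control array. Of the 2811 calls at least 99.2% kept their sign under each alternative. With median scaling 2064 genes fell. The 83 genes past 2-fold became 16 without background correction, 19 in the processed table, 37 with an offset of 50 and 42 among genes detected on all 8 arrays. The cause was not tested, but the offset and background settings compress low levels by construction. The 2 genes that differed among lines became 4 without background correction, 4 with a trended robust prior, 10 with array weights, 0 with no filter, 0 with only the 8 DMSO arrays in 4 groups, and 0 to 3 when an array was left out. With the replicate number as a block, 2730 genes were called in the pool, 845 in every line and 1 among lines. Deviations of same-numbered arrays of different groups correlated between -0.057 and 0.061 over all genes tested, so no broad pairing by number was seen. Whether same-numbered arrays share a culture day or batch was not tested. With the line as a random block (correlation 0.0504) 2577 were called. Of 3075 single-gene values, 2953 stayed on their side of the threshold, 110 no longer passed, 50 of these without a control array, 4 newly passed and 8 changed sign. Those that changed sign had not passed: TNFAIP3 (main value -0.037; -0.145 to 0.070 when an array was left out) was 0.022 with median scaling, 0.097 without the CKS2 line, 0.057 without the NFIL3 line, 0.070 without control array 2, 0.015 without BOP1 array 2 and 0.030 without CKS2 array 2, DDIT3 was -0.064 without the BOP1 line and NMB -0.021 without the NFIL3 line. Named genes below background on every array of a group carry a bound. Those below background on only some arrays of a group carry none, and their differences depend partly on values at background.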

Other observations

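Where a gene had further probes that were kept, most moved with the probe that stood for it. For genes that rose, 590 of 701 further probes had a difference in the same direction (84.2%), for genes that fell 360 of 428 (84.1%), and for genes past 2-fold 18 of 19 (94.7%). For genes that did not pass the share was 62.7%. Opposite calls were found for 12 further probes of genes that rose and 4 of genes that fell.

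Of the 4992 kept probes with no single listed gene, 16.1% passed in the pooled comparison, and 15 rises and 14 falls exceeded 2-fold. The summed linear level of the 16 colon epithelium markers was 81900 on both control arrays and 76700 to 85100 on the line arrays. That of the fibroblast markers was 417 to 478 in control and 480 to 520 in the lines, that of the leukocyte markers 650 to 690 and 668 to 772, and that of the endothelial markers 254 to 265 and 264 to 296. The part of these sums in the results was not tested.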
